A study of Mus musculus with 2 samples.

Results

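Mir139 (ENSMUSG00000065446.1) is the gene of the microRNA miR-139, and an intron of Pde2a, which encodes a phosphodiesterase, holds it. It was chosen by its level, as one of the highest genes in both libraries of the series, and it is 1 of the 2202 microRNA genes in the count files. Its level is therefore described here without a test. The libraries are microRNA-seq (RNA fragments shorter than 30 bases) of hippocampus from male B6CASTF1/J mice, an F1 cross that carries both C57BL/6J and CAST/EiJ alleles, at 36 days of age. No treatment, transgene or second condition is given in the labels, and the 1 group holds biological replicates 1 and 2. The replicates came from separate tissue samples, which the labels give the same donor, and their spread may be technical. A difference between them is a difference between 2 libraries of the same condition.

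A microRNA is cut from a hairpin in a longer transcript, and 1 of the 2 arms is usually loaded into Argonaute, where bases 2 to 8 (the seed) pair with target messenger RNAs and lower their output. An intronic microRNA such as miR-139 can be made from the transcript of its host gene. Pde2a encodes a phosphodiesterase that is activated by cGMP and degrades both cAMP and cGMP, and it is known to be abundant in forebrain neurons. The 5p arm is the one usually studied as miR-139, with reported targets that include Igf1r, Rock2 and the activity-regulated transcription factor Fos.

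The hairpin and both mature arms of Mir139 are shown because the counts join the arms into 1 value per gene. They come from RefSeq on GRCm38.p6, the mm10 assembly of the files. The hairpin lies at chr7:101475376-101475443 on the plus strand, and capitals mark the 5p arm and then the 3p arm.

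Mir139 hairpin: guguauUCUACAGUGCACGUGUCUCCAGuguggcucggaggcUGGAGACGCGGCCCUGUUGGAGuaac

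In the mature sequences below, capitals mark the seed. The let-7 sequences are given for contrast, since let-7 genes stand directly above and below Mir139 in level, and miR-744-5p belongs to the next gene in an intron of a protein-coding host.

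miR-139-5p: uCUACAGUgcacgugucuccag
miR-139-3p: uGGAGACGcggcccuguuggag
let-7g-5p: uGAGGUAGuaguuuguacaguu
let-7b-5p: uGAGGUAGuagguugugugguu
let-7i-5p: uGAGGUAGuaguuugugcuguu
miR-744-5p: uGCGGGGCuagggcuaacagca

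Neither arm of miR-139 had a seed relative among the 1738 mature mouse microRNAs of the RefSeq table: 0 mature microRNAs of other genes shared bases 2 to 8 with miR-139-5p, and 0 with miR-139-3p. With bases 2 to 7 alone, miR-139-5p again had no partner and miR-139-3p had 1, miR-6397. By contrast, 10 mature microRNAs of other genes shared the seed of let-7g-5p. The arms of Mir139 span bases 7 to 28 and 43 to 64 of the 68-base hairpin, with 14 bases between them. In the fold of lowest energy predicted by RNAfold the hairpin had 25 base pairs and a free energy of -35.6 kcal/mol, and 19 of the 22 bases of the 5p arm paired with the 3p arm. The energy per base was -0.52 kcal/mol, against a median of -0.41 over 1005 RefSeq mouse hairpins, of which 12.0% had a lower value. Its GC content was 58.8%, against a median of 51.7%.

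The sequence of Mir139 was also distinct among annotated microRNA genes, which matters because reads that match several places enter no gene's count. The longest stretch it shared with any other microRNA gene of the annotation was 11 bases, with Mir6352, and 0 genes shared 20 bases with it. Each whole mature arm occurred in the GENCODE M21 transcripts of 1 gene, Mir139 itself. Sequence outside annotated transcripts was not searched, and the effect of CAST/EiJ variants on mapping was not tested.

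Mir139 lay inside Pde2a (ENSMUSG00000110195.1, chromosome 7, 101421691 to 101512827, plus strand, mm10), on the strand of the host, and overlapped no exon of it. Of the 12 annotated transcripts of Pde2a, 10 carried Mir139 in an intron and 2 began downstream of it. In 4 protein-coding transcripts (Pde2a-201, Pde2a-202, Pde2a-204 and Pde2a-212) this was intron 2, of 29902 bases from 101451469 to 101481370. The hairpin began 23907 bases after the exon before it and ended 5927 bases ahead of the next exon, and the second distance held for all 10 transcripts. Annotated transcript starts upstream of Mir139 lay between 14432 bases (Pde2a-210) and 53685 bases (Pde2a-201) away, so transcripts from several starts pass through the hairpin. The counts do not say which was used. A second annotated protein-coding gene, Gm45837 (ENSMUSG00000030653.17, 101410886 to 101512819), spans the same intron on the same strand, so the annotation gives Mir139 a pair of host genes.

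**Figure D1:**
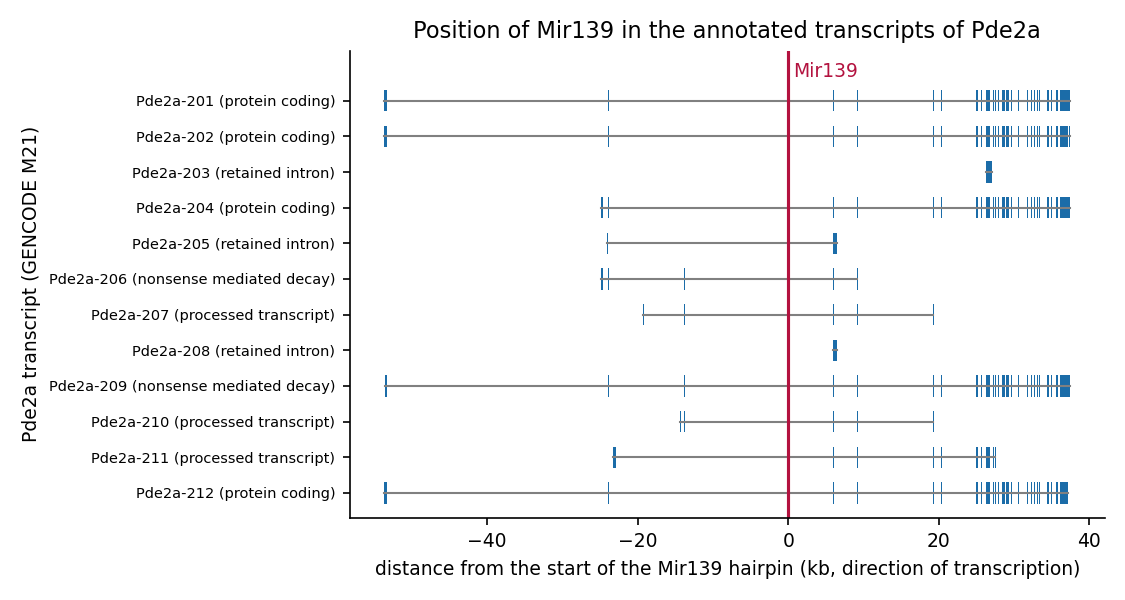
Exons (blue boxes, drawn with a minimum width so that short ones can be seen) and introns (grey lines) of the 12 annotated Pde2a transcripts, by distance in kb from the start of the Mir139 hairpin (red line). Mir139 falls in an intron of 10 transcripts, 5927 bases ahead of the next exon in each, and 2 transcripts begin downstream of it.

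No other microRNA gene lay close by. Over 153 microRNA genes on chromosome 7, 0 others began within 100000 bases of Mir139. The nearest downstream was Gm22655, 405740 bases away, with 0 counts in both libraries. Upstream the nearest was Mir3102, 592966 bases away on the minus strand in an exon of Arhgef17, with 2325 counts in replicate 1 and 3057 in replicate 2. Mir326, in an intron of the arrestin gene Arrb1, had 1825 and 2429 counts. Gm25171, Gm23550 and Mir6394, the other neighbours on either side, had 0 counts in both libraries. Mir139 alone held 85.9% of the counts of chromosome 7 in replicate 1 and 82.4% in replicate 2.

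The libraries were deep for a gene of this level. Own-strand counts of microRNA genes summed to 4404040 and 5279877, out of 12462653 and 15241166 reads, of which 40.3% and 46.5% matched several places and 20.2% and 13.7% were unmapped. In both libraries, 411 genes reached 10 counts and 1424 had 0. Neuronal markers were present: Mir132, a microRNA induced by neuronal activity, had 104971 and 91085 counts, and 7 of 10 neuronal markers reached 10 counts in each library. The 3 exceptions were the genes of miR-124, the most familiar neuronal microRNA: Mir124a-1 had 11 and 8 counts, Mir124a-2 had 1 and 1, and Mir124a-3 had 0 and 0. Each shares 20 bases with 2 other genes, so reads of miR-124 can match several places. Levels of other lists are in CPM, counts scaled to a library of 1000000. The liver microRNA Mir122 stood at 30.2 and 27.7 CPM, the summed muscle list at 98.3 and 108 CPM and the red blood cell list at 66.8 and 113 CPM. The muscle sum is nearly that of Mir206 alone (98.1 and 107 CPM). In that list 4 of 5 genes share 20 bases with another gene and 3 had 0 counts in both libraries, so reads of these can be missed. The vessel wall list summed to 16250 CPM in replicate 1 and 43835 CPM in replicate 2 (of which the endothelial Mir126a gave 9729 and 37937), the choroid plexus and ciliated epithelium list to 777 and 1416 CPM, the oligodendrocyte list to 5819 and 5662 CPM and the microglia and leukocyte list to 728 and 856 CPM.

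Mir139 had 419788 counts in replicate 1 and 388052 in replicate 2, all on its own strand, with 0 on the opposite strand in both. Replicate 1 thus gave 9.53% of its counts to Mir139 (95% Wilson interval 9.50 to 9.56), while in replicate 2 the share was 7.35% (7.33 to 7.37). On the CPM scale the levels were 95319 and 73496, or 84408 ± 15431 (SD, n = 2). About 1 in 10.5 counts of replicate 1 and 1 in 13.6 of replicate 2 came from this gene. Taken over all reads, with those that name no gene, the shares were 3.37% and 2.55%. These intervals, like those that follow, hold for counting error alone: reads copied by PCR carry no identifier of the molecule they came from. They are far narrower than the gap between the libraries. In tissue, fewer cells of a type and less RNA per cell cannot be told apart.

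Mir139 ranked second in both libraries. Mirlet7g, a member of the let-7 family that is widely expressed in differentiated tissue, ranked first, with 501087 and 500603 counts. Mirlet7b had rank 3 in both, with 372663 and 362132 counts. Of the 10 highest genes by mean, 4 held the same rank in both libraries: Mirlet7g, Mir139, Mirlet7b and Mir127. Genes can be compared by count here because a read spans a mature microRNA rather than a part of a long transcript. Capture may differ from sequence to sequence, which was not tested. Reads that match several places, 40.3% and 46.5% of the reads, enter no gene's count. Genes that share sequence with others, such as those of miR-124, can therefore be undercounted. The rank of Mir139 holds among counts that leave such reads out. Per base of the annotated hairpin, which is 68 bases for Mir139, it ranked 1 of all genes. Since a read spans a mature microRNA, that rank reflects the annotated length as well as the count.

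**Figure D2:**
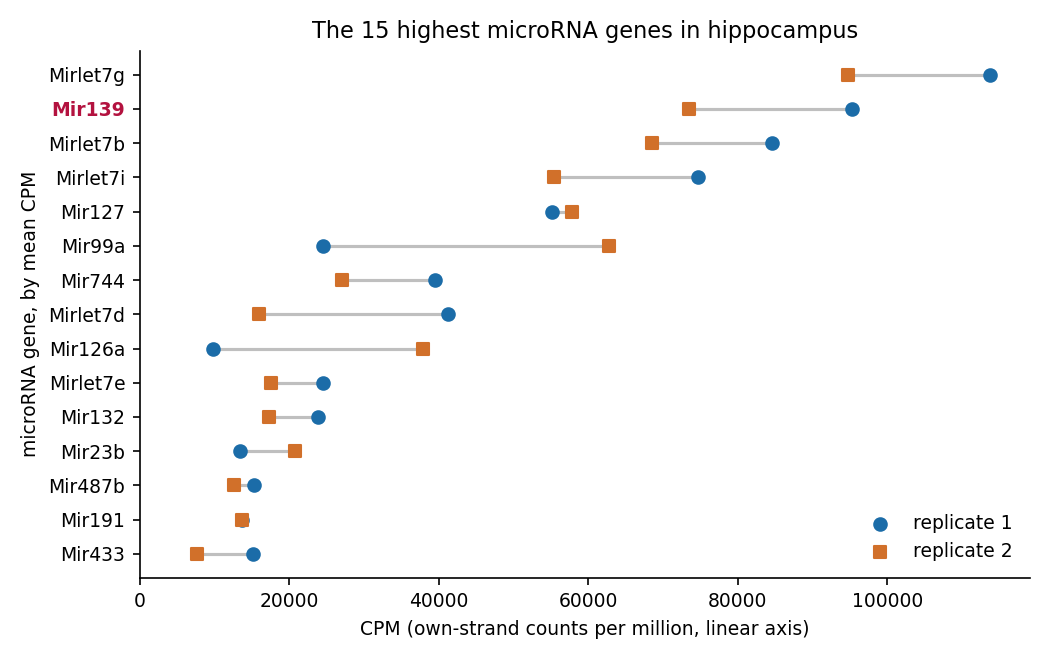
Level in CPM (linear axis) of the 15 highest microRNA genes in replicate 1 (blue circles) and replicate 2 (orange squares), ordered by mean. Mir139 stands second in both libraries, at 95319 and 73496 CPM, and its replicate 2 value lies below the replicate 1 value of Mirlet7b. Reads that match several places are not in these values.

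Ratios of counts within a library do not depend on how the libraries are scaled. Mir139 had 0.838 times the counts of Mirlet7g in replicate 1 (95% exact binomial interval 0.834 to 0.841) and 0.775 times in replicate 2 (0.772 to 0.778), a mean of 0.806 ± 0.0443 (SD, n = 2). Against Mirlet7b it had 1.13 times the counts (1.12 to 1.13) and 1.07 times (1.07 to 1.08). These 3 genes stood in the same order in each library, which describes the levels Mir139 was chosen by. Across libraries their CPM values overlapped, since Mir139 in replicate 2 lay below Mirlet7b in replicate 1 (84618 CPM). Mir139 had 1.28 and 1.33 times the counts of Mirlet7i, and 1.73 and 1.27 times those of Mir127, an imprinted microRNA gene. For Mir99a, a miR-10 family gene in the transcript Mir99ahg, the ratios were 3.88 and 1.17, with 108137 counts of Mir99a in replicate 1 and 331489 in replicate 2. For Mir744, in an intron of the kinase gene Map2k4, they were 2.41 and 2.72.

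Among genes with a like position, Mir139 was one of a small set that carried most counts. Of the 2202 genes, 818 lay in an intron of another gene on their own strand, of which 199 reached 10 counts in each library. The detected intronic genes had a median level of 69.1 CPM, and the 411 detected genes of any position had 94.2 CPM. Mir139 gave 20.4% of all intronic counts in replicate 1 and 15.2% in replicate 2, or 17.8% ± 3.66 (SD, n = 2). Within introns of protein-coding genes its share was 24.0% and 19.6%. Intronic genes together held 46.7% and 48.2% of the counts, and those in introns of protein-coding genes 39.7% and 37.5%.

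The other microRNA genes in phosphodiesterase hosts had few counts, and so did most microRNA genes in the files. Of all 2202 genes, 1424 had 0 counts in both libraries and 411 reached 10 in each. The annotation placed 5 microRNA genes, Mir139 among them, inside genes with a phosphodiesterase symbol. Mir582, in an intron of the cAMP-specific Pde4d, had 84 counts in replicate 1 and 111 in replicate 2, or 20.0 ± 1.38 CPM (SD, n = 2), and was not called different between the libraries. Mir7672, in an exon of Pde12, which acts on 2′,5′-linked RNA and not on cyclic nucleotides, had 5 and 2 counts. Gm44413 in Pde1c and Mir1904 in Pde4d had 0 counts in both libraries, which allows up to 0.681 CPM in replicate 1 and 0.568 CPM in replicate 2 (3 counts).

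A list of 33 further microRNA genes in named hosts, many of them neuronal, put the level of Mir139 in context. In both libraries 32 of the 33 had fewer counts than Mir139, the exception being Mirlet7g in Wdr82. That number was fixed by the rank of Mir139, since only Mirlet7g ranked above it in either library. The median of the list was 944 CPM. After Mir744, the next was Mir151, in an intron of the focal adhesion kinase gene Ptk2, with 53953 and 50246 counts. Mir128-1, a brain-enriched microRNA in R3hdm1, had 23956 and 63088 counts, and Mir128-2 in Arpp21, a gene of striatal and cortical neurons, had 4617 and 9999. Each shares 20 bases with 1 other gene, so their counts are uncertain. Mir338, an oligodendrocyte microRNA in Aatk, had 10465 and 10877. Of hosts with roles in neurons, the intron of the glutamate receptor gene Grid1 gave 2507 and 9150 counts of Mir346, and that of Ptprn2 gave 420 and 1650 of Mir153. At the low end, Mir211 in Trpm1 had 5 and 9 counts and Mir448 in the serotonin receptor gene Htr2c 56 and 123.

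**Figure D3:**
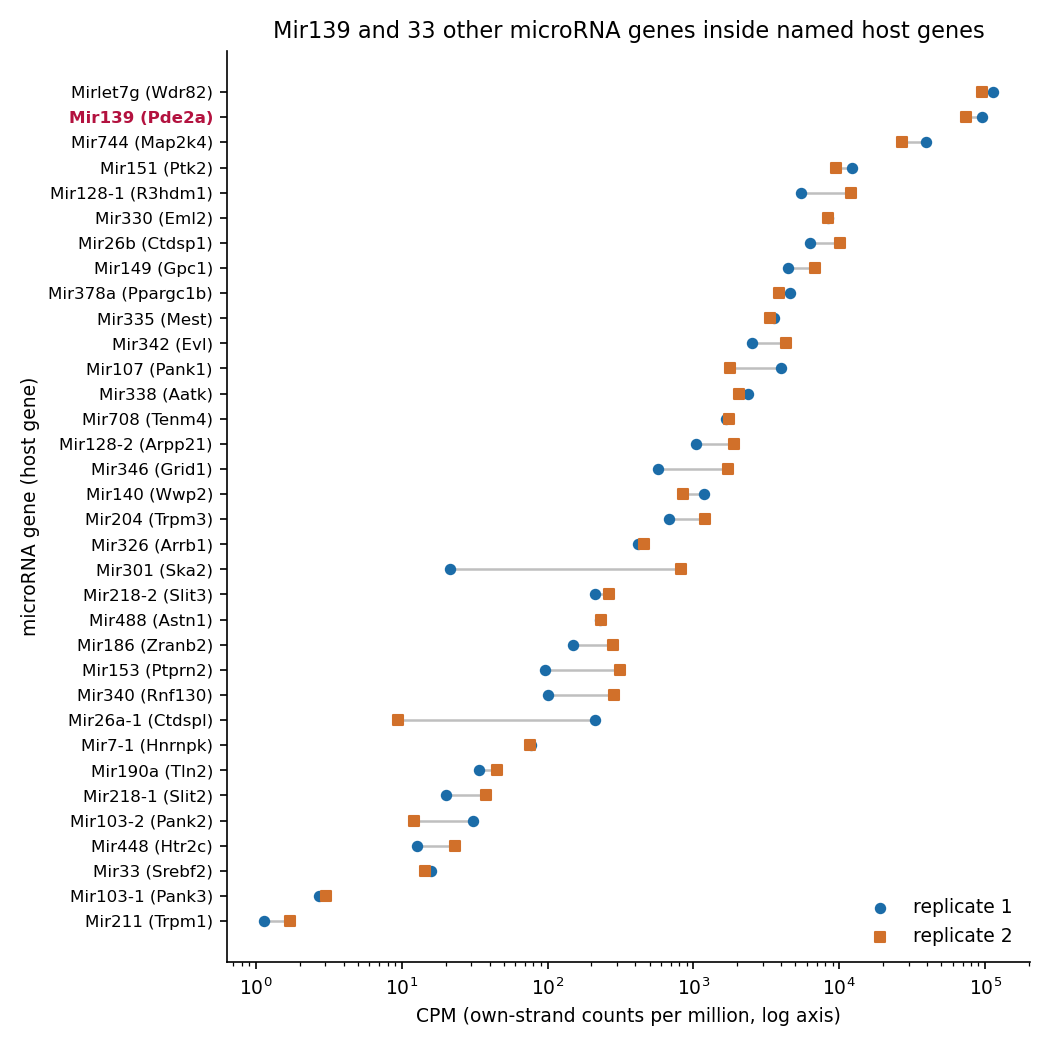
Level in CPM (log axis) of Mir139 and the 33 other listed microRNA genes, with the host gene in parentheses, in replicate 1 (blue circles) and replicate 2 (orange squares). The list runs from Mirlet7g and Mir139 down to Mir211 with 5 and 9 counts, and Mir301 and Mir26a-1 show the widest gaps between the libraries.

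Between the libraries, Mir139 was lower in replicate 2. Its count dropped by 7.56% although the library total was 19.9% larger. After TMM scaling (which equalises typical genes between libraries) and with 1 CPM added to each value, the log2 ratio of replicate 2 over replicate 1 was -0.39, with a 95% exact binomial interval of -0.40 to -0.39 for counting error. This is a level 23.8% lower. The two-sided exact binomial test of the 2 counts, adjusted by Benjamini-Hochberg across the 504 genes whose counts summed to at least 10, called the gene lower, with a log10 p of -3242 before adjustment. That test calls many genes at this depth: 23.2% of the tested genes were called lower, 32.5% higher and 55.8% in either direction. A call here says little about Mir139 in particular.

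With spread between libraries built in, Mir139 was not called. The common spread that edgeR estimated from the same 2 libraries, an intercept-only coefficient of variation, was 0.426, and in a beta-binomial test with that spread Mir139 had an exact p of 0.658, with 0.595% of the 504 genes called. With 1 library on each side and a spread taken from the same libraries, this test can call few genes, and it does not show that the levels were equal. Other abundant genes differed more. Of the 85 genes with 1000 CPM or more in both libraries, 53 had a larger absolute log2 ratio than Mir139, and the median absolute log2 ratio was 0.48. Of these 85, 45 were called lower in replicate 2 and 37 higher in the binomial test. Over all tested genes that test called 23.2% lower and 32.5% higher, and it calls more readily at high counts. The 85 genes had a median log2 ratio of -0.09, and 22 had a more negative log2 ratio than Mir139.

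**Figure D4:**
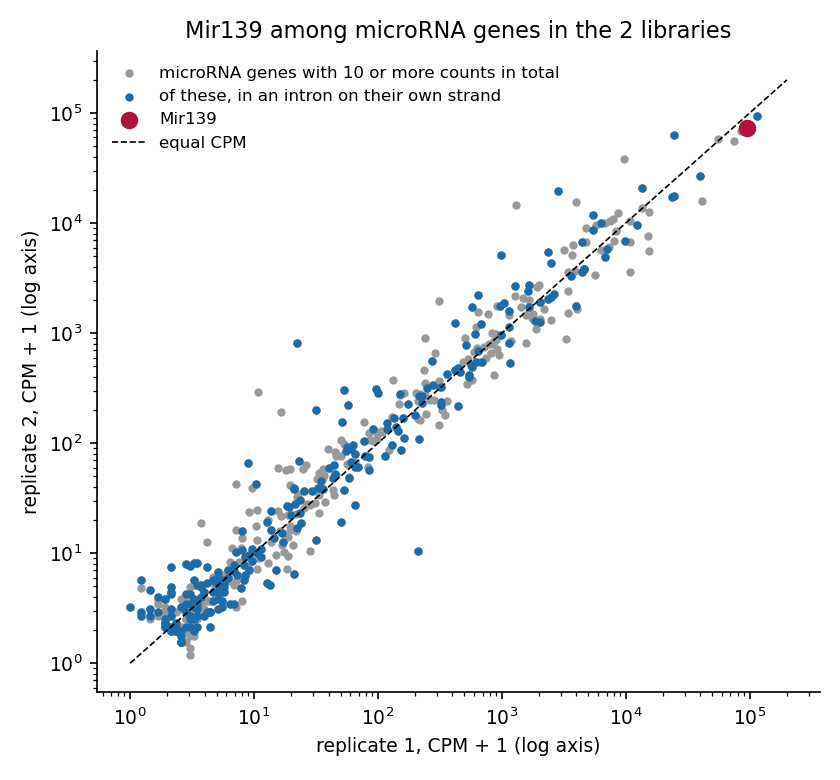
CPM + 1 in replicate 1 against replicate 2 (both log axes) for the 504 tested genes, with genes in an intron on their own strand in blue and Mir139 in red. Mir139 lies at the top end of the cloud, below the dashed line of equal CPM and within the width of the other abundant genes.

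The direction was the same under 8 alternative settings, made up of 4 other scalings, 2 other count minimums, either-strand counts and another added CPM. It could not have turned, because the count fell while each library size used was larger in replicate 2. The settings show only how far the size of the difference moved. The log2 ratio lay between -0.56, with library totals that leave out the let-7 genes, and -0.34, with either-strand counts. Part of that span is a shift of all genes: the median log2 ratio of the tested genes was 0.05 with TMM and -0.10 with totals that leave out let-7. Relative to the median of the tested genes, Mir139 stood between -0.52 and -0.42 in each setting.

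**Figure D5:**
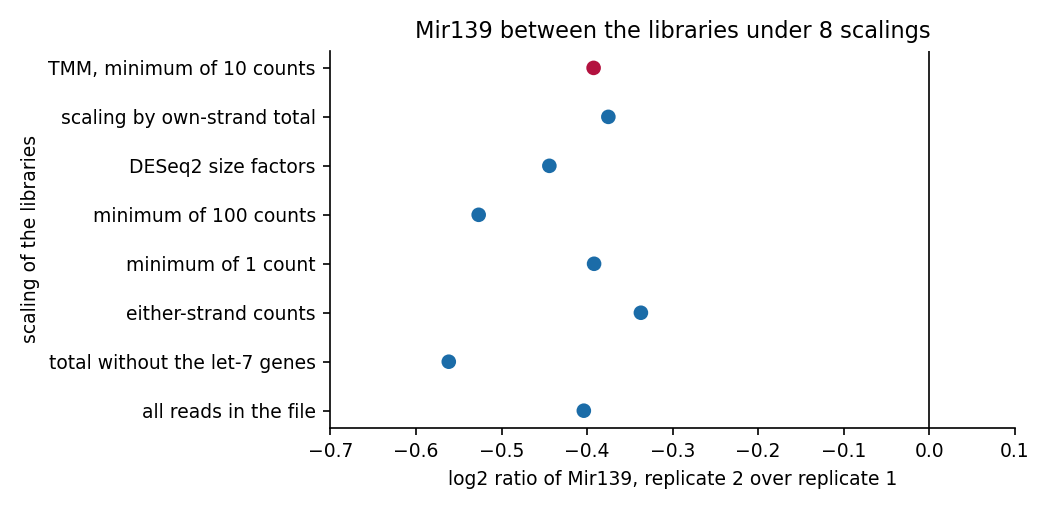
Log2 ratio of Mir139, replicate 2 over replicate 1 (horizontal axis), under TMM (red) and 7 other scalings, count minimums or strand counts (blue), with the vertical line at 0 for equal levels. Each value lies below 0, from -0.56 to -0.34.

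The genes most like Mir139 were taken as the 5 with 1000 CPM or more in both libraries whose TMM log2 ratio lay nearest, a likeness over 2 libraries. Mir151 was nearest, with a log2 ratio of -0.38, so that its counts were 12.9% of those of Mir139 in both libraries. Mir1839 had -0.42 and stood at 2.29% and 2.25% of the Mir139 counts, and Mir671, in an exon of Chpf2, had -0.34 and stood at 1.82% and 1.88%. Mirlet7i (-0.45) and Mirlet7b (-0.32) completed the 5.

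The 33 genes in named hosts lay in both directions. Of these, 17 were called higher in replicate 2 and 10 lower in the exact binomial test, where 32.5% of all tested genes were called higher and 23.2% lower, and 12 of the 33 share 20 bases with another gene, which makes their counts uncertain. The list had a median log2 ratio of 0.13 against 0.05 for all tested genes. Of the 254 tested genes in an intron on their own strand, 74 were called higher and 53 lower, near the shares over all tested genes, with a median of 0.06. With a minimum of 100 counts the calls over all genes split into 122 higher and 130 lower of 313 tested, against 164 and 117 of 504. The abundant hosted genes Mirlet7g (-0.28), Mir744 (-0.57) and Mir151 lay on the side of Mir139, while Mir128-1 (1.12), Mir26b in Ctdsp1 (0.67) and Mir149 in Gpc1 (0.60) lay on the other. Mir301, in an intron of Ska2, had 94 counts in replicate 1 and 4313 in replicate 2, and Mir26a-1, in Ctdspl, had 932 and 50 but shares 20 bases with 1 other gene. Among the marker lists, the higher sum of the vessel wall list in replicate 2 rested on Mir126a (log2 ratio 1.95, called higher), while the smooth muscle marker Mir143 was called lower (-0.17) and Mir145a called higher (0.18). Mir139 had 5.87 times the sum of that list in replicate 1 and 1.68 times in replicate 2. Against the oligodendrocyte list the factors were 16.4 and 13.0, and against the neuronal list 2.59 and 1.78. In the neuronal list 9 of 10 genes share 20 bases with another gene, and in the oligodendrocyte list 2 of 3. Both sums can miss reads, so these factors may be too high. Within the neuronal list Mir132 was called lower in replicate 2, while Mir128-1, Mir128-2, Mir138-1, Mir138-2, Mir129-1 and Mir129-2 were called higher. Whether cell make-up differed between the libraries, and its part in the level of Mir139, was not tested.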

How the data were processed

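Per the submitters' processing notes, the build was mm10 with GENCODE M21. An aligner is not named in the sources used here. The deposited values are raw counts per microRNA gene, without normalization. Their 3 columns hold either-strand, own-strand and opposite-strand counts, as read from the values. Own-strand counts were used. Lines that name no gene held 64.7% and 65.4% of the reads and entered neither library sizes nor tests. Reads that match several places enter no gene's count, and arms of a hairpin are not separated. Scripts computed CPM from own-strand totals, 95% intervals, and log2 ratios with edgeR 4.0.16 TMM sizes (R 4.3.3) and 1 CPM added. The libraries were compared with exact binomial and beta-binomial tests (scipy 1.17.1, threshold 0.05, 10 counts or more), checked on simulated data. edgeR has no contrast to test in 1 group, and an exact two-sided sign-flip test of 2 libraries cannot go below 0.5. DESeq2 1.42.0 gave alternative size factors. Folds came from ViennaRNA 2.7.2.

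Position classes refer to non-small-RNA genes of GENCODE M21 on the same strand, and all 2202 identifiers matched. RefSeq sequences matched 1021 of 1174 Mir symbols. The member, lists and rules were chosen with earlier results of these data known. Named genes are Mir139, the genes next to it in level (5 on each side where present), the 5 nearest in log2 ratio among genes of 1000 CPM or more, the 3 nearest on each side of the chromosome, those in phosphodiesterase hosts, and a list of 36 hosted genes, of which 3 without a host in the list itself were left out. Markers matched by older symbols were Mir142, Mir146 and Mir486. Alternatives were other scalings, minimums, added CPM, strand columns, spreads, gene classes and each library alone.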

Additional observations from a re-analysis of the deposited data

How the results depend on the processing

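The rank of Mir139 stayed at 2 in 6 of 7 alternatives and was 1 per base of the hairpin, which depends on the annotated length. Its mean level ranged from 73496 to 95319 CPM over the libraries taken singly. It was 29572 when scaled over all reads and 123664 with totals that leave out let-7, both set by the denominator. The share of intronic counts was 21.8% in introns of protein-coding genes, and 15.2% to 20.4% over single libraries. The ratio to Mirlet7g was 0.775 to 0.838. The log2 ratio kept its call in the exact binomial test in all 8 alternatives, and its direction could not turn in any of them. The added CPM does not enter that test, so changing it repeats the main test. With a log10 p of -3242 before adjustment in the exact binomial test, the kept call adds little. With spread between libraries built in, Mir139 was not called in the exact beta-binomial test: the adjusted p was 0.135 at a coefficient of variation of 0.1, and 1 at 0.3 and at the edgeR estimate. The count of genes that differ was 281 by counting error, 149 at 0.1, 14 at 0.3 and 3 at the edgeR estimate. It was 252 to 281 in the 6 other alternatives, but the number of genes tested changed with the setting. At a minimum of 100 counts 252 of 313 tested genes were called, and at a minimum of 1 count 275 of 778. With either-strand counts 257 of 479 were called, against 281 of 504 in the main setting, so the share called was not stable. With a minimum of 100 counts the split was 122 higher and 130 lower, against 164 and 117. No comparison of the libraries can leave out a replicate, and no paired analysis was possible because there is 1 group. Each comparison of the libraries rests on 1 library a side, whatever the depth.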
